A study of Mus musculus with 4 samples.

Results

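The plasma cell program genes described here are 10 genes that antibody-secreting cells use: Prdm1, Xbp1, Pou2af1, Ell2, Tent5c, Mzb1, Jchain, Sdc1, Tnfrsf17 and Ccr10. They were listed by name, and the list was chosen on earlier results of the same IRF4-RV against EV-RV contrast, so their levels in that contrast are given as a description without a test. All 10 were found among the 55359 gene identifiers of the count table. The filter on low counts left 14637 genes, with 9 of the 10 among them and Tnfrsf17 not. The libraries came from T8, a pB-ALL (preB-cell acute lymphoblastic leukemia) cell line grown from the tumor of 1 Irf4-/- mouse. It was established on irradiated ST2 stromal cells with IL-7, and the paper states that it no longer needed ST2 cells after several passages. T8 cells were transduced with a retrovirus coding for GFP alone (EV-RV) or for GFP and IRF4 (IRF4-RV). RNA was taken from viable cells 24 h later, with 2 libraries per group. Both groups are therefore Irf4-/-, both come from 1 tumor, and IRF4-RV supplies the factor from a viral vector and not from its own locus. The sample titles and the tissue name T8, while the protocol text names T11, another tumor line of the study.

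A B cell becomes a plasma cell when it gives up its B-cell identity, stops dividing and enlarges its endoplasmic reticulum (ER) to secrete antibody. IRF4 and Blimp-1, the product of Prdm1, are the factors best known for driving that change, and XBP1 drives the secretory part of it. Precursor B cells like those of this leukemia lie several stages earlier and do not secrete antibody.

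Levels are given as CPM, the counts of a gene per 1000000 counts of its library after TMM scaling, which evens out differences in library composition. Library totals ran from 31686715 to 37817752 counts, so 3 counts, taken as the lower limit of detection, were worth 0.0824 to 0.0952 CPM. Counting intervals cover counting error only. Irf4 itself stood at 241.9 and 241.0 CPM in the EV-RV libraries and at 2822 and 2491 CPM in the IRF4-RV libraries, which fits the labels. In the IRF4-RV libraries, reads from the vector and from the disrupted locus could not be told apart. The EV-RV vector coded for GFP alone, so Irf4 reads were also present without an IRF4 vector, and their origin was not tested. B-cell precursor genes were present in all 4 libraries: the 11 markers summed to 2483 to 3688 CPM, with Cd79a, Cd79b and Pax5 well detected and Rag1 and Rag2 at no more than 1 count each. T and NK cell markers summed to 48.4 and 48.2 CPM in EV-RV libraries but 33.2 and 32.8 CPM in IRF4-RV libraries, mostly from Trac and Zap70, each lower by the edgeR test used below (adjusted p = 0.00229 and 0.00671), while Cd8a and Ncr1 were at 0. Macrophage markers summed to 0.603 to 0.989 CPM with Adgre1, Mertk and Marco at 0, and plasmacytoid dendritic cell markers to at most 1.24 CPM. Granulocyte markers gave 7 and 11 counts in EV-RV libraries but 42 and 83 in IRF4-RV libraries, mostly from Lcn2, which was higher by that test (log2 4.06, adjusted p = 0.00396). The part of these other markers in the results was not tested. The 8 stromal markers (collagens, Cxcl12 and others) differed between replicates of a group. They summed to 46.9 and 87.5 CPM in the EV-RV libraries, and to 46.2 and 218.2 CPM in those of IRF4-RV, so that IRF4-RV replicate 2 stood apart from the other 3 libraries. Values without that library are given where a result touches genes that follow it. In bulk RNA, more cells with a transcript and more transcript per cell cannot be told apart.

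Promoter sequence was available in RefSeq (GRCm38.p6, 250 bases before to 50 after the transcript start) for 8 of the 10 genes, all but Ccr10 and Mzb1, and is shown for 4 of them to set promoters of very different base composition side by side. Each stretch below lies upstream of the RefSeq start, outside the exons of its gene in GENCODE M21, and is printed 5′ to 3′ on the strand of the gene, with a motif match in capitals. They are the gene with the largest difference between the groups (Tent5c, chr3:100489325-100489442, minus strand), the gene of Blimp-1 (Prdm1, chr10:44458749-44458868, minus strand), the most highly expressed member (Pou2af1, chr9:51213570-51213689, plus strand) and a member whose groups overlapped (Jchain, chr5:88527898-88528017, minus strand).
Tent5c: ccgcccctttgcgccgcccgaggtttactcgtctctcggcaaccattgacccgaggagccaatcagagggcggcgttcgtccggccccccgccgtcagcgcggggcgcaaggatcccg
Prdm1: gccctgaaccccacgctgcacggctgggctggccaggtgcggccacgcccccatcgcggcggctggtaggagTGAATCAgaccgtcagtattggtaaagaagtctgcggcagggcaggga
Pou2af1: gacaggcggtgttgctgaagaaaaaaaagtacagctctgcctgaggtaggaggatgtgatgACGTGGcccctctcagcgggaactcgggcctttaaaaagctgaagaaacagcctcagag
Jchain: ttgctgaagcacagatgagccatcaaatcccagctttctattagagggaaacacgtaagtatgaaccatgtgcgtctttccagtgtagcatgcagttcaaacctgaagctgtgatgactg

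The 250 bases upstream of the start were 78.8% G or C in Tent5c, 59.2% in Prdm1, 56.0% in Pou2af1 and 42.0% in Jchain, beside a median of 52.4% over all promoters of the table. The upstream bases of Sdc1, Ell2, Xbp1 and Tnfrsf17 were 66.0%, 61.2%, 50.4% and 49.2% G or C. Both strands of the 8 windows were searched for 5 motifs chosen for this report. GAAA followed after any 2 bases by a further GAAA, of the kind that interferon regulatory factors bind, was found in 1 of the 8 windows, that of Tnfrsf17 (bases -101 to -92 from the start), and in 3.44% of all 32851 promoters. GGAA followed after any 2 bases by GAAA, the composite bound by ETS factors together with IRF4 or IRF8, was in none of the 8 and in 2.72% of all. ATTTGCAT, the octamer that recruits the POU2AF1 coactivator, was likewise in none of the 8 and in 1.74% of all. TGANTCA, of the AP-1 type, was in the Prdm1 window (bases -48 to -42) and in 7.81% of all. ACGTGG, a core of sites for ER stress factors such as XBP1, was in the Pou2af1 window (bases -59 to -54) and in 8.31% of all. These matches describe letters in these windows and say nothing of binding.

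Among the transcription regulators, the genes for Blimp-1 and XBP1 were both higher with IRF4-RV, but at very different levels. Prdm1 (ENSMUSG00000038151, chr10:44437177-44528501, minus strand), the gene of the repressor that silences the B-cell program, had 8 and 9 counts in EV-RV and 46 and 35 in IRF4-RV libraries. That was 0.263 ± 0.0323 CPM against 1.16 ± 0.281 CPM (SD, n = 2 each), a ratio of 4.42 with a 95% counting interval of 2.59 to 7.92. The groups did not overlap, but Prdm1 stayed a rare transcript, at about 1 CPM, after IRF4 was restored. Xbp1 (ENSMUSG00000020484, chr11:5520659-5525893, plus strand), the gene of the factor that expands the secretory apparatus, was already abundant with EV-RV. Its EV-RV libraries were at 124.2 and 144.0 CPM, its IRF4-RV libraries at 223.7 and 250.9 CPM, a ratio of 1.77. Every IRF4-RV library was above every EV-RV library. Gene-level counts do not separate the spliced and unspliced Xbp1 messages, so they give the amount of Xbp1 message and not the active form.

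Pou2af1 (ENSMUSG00000032053, chr9:51213708-51240080, plus strand) encodes the coactivator that octamer-binding factors need at immunoglobulin genes. Its 2 EV-RV libraries were at 669.2 and 692.5 CPM, and the 2 of IRF4-RV reached 827.2 and 795.3 CPM. The groups did not overlap, and the difference was small: a ratio of 1.19, or 0.25 on the log2 scale, and 0.16 when libraries were scaled by their totals alone. Ell2 (ENSMUSG00000001542, chr13:75706757-75772364, plus strand), the elongation factor that plasma cells use to switch to secreted immunoglobulin message, was close to the limit of detection. Counts were 8 and 8 after EV-RV against 18 and 12 after IRF4-RV, a ratio of 1.75 with a counting interval of 0.914 to 3.40 that includes equal levels. The 2 groups did not overlap, yet the depth did not show a difference. Ell2 also shares 130 exonic bases with the snoRNA gene Gm23127 and 94 with the antisense gene 1700037F03Rik, and the strand setting of the counting is not given in the sources used here.

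The messages that act on antibody production and assembly split sharply. Tent5c (ENSMUSG00000044468, chr3:100451628-100489324, minus strand), also known as Fam46c, encodes a poly(A) polymerase that lengthens the tails of messages for secreted proteins, immunoglobulin among them. The EV-RV libraries held 9 and 15 counts, the IRF4-RV libraries 1388 and 1344. In CPM that was 0.373 ± 0.146 against 39.0 ± 2.88 (SD, n = 2 each), a ratio of 104.5 with a counting interval of 70.5 to 164.3. This was the largest ratio among the 10 genes, from a level near the limit of detection. Mzb1 (ENSMUSG00000024353, chr18:35647267-35649367, minus strand), the ER chaperone that helps assemble IgM, read 62.6 and 65.0 CPM in EV-RV libraries against 67.1 and 70.7 CPM in IRF4-RV libraries. Its ratio was 1.08, and with libraries scaled by their totals alone the groups overlapped, at 65.9 and 65.6 against 65.4 and 68.1 CPM. Mzb1 also shares 695 exonic bases on the same strand with SPATA24, so its counts depend on how shared reads were treated. Jchain (ENSMUSG00000067149, chr5:88519809-88527891, minus strand) encodes the chain that joins IgM and IgA into polymers. Counts were 8 and 19 in the first group and 12 and 11 in the second, a ratio of 0.779 with a counting interval of 0.431 to 1.43. Its groups overlapped, and without EV-RV replicate 2 the sign of its log2 difference turned, from -0.35 to 0.45.

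The surface receptors went in different directions or were not detected. Ccr10 (ENSMUSG00000044052, chr11:101172997-101175443, minus strand), the chemokine receptor that brings antibody-secreting cells to mucosal tissue and skin, had 27 and 33 counts in the EV-RV libraries but 1753 and 1989 in the IRF4-RV libraries. The means were 0.928 ± 0.168 CPM against 53.2 ± 2.03 CPM (SD, n = 2 each), a ratio of 57.3 with a counting interval of 44.6 to 75.6. The gene lies inside the span of Cntnap1 on the other strand and shares no exonic base with it. Tnfrsf17 (ENSMUSG00000022496, chr16:11313812-11320074, plus strand), the gene of BCMA, the survival receptor of long-lived plasma cells, had no count in either EV-RV library, 4 counts in IRF4-RV replicate 1 and 0 in replicate 2. A count of 0 allows up to 0.0952 CPM in these libraries, and no fold is given. Of the receptors, then, 1 was strongly higher and 1 was not detectable at this depth in 3 of the 4 libraries.

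Sdc1 (ENSMUSG00000020592, chr12:8771323-8793715, plus strand), the gene of syndecan-1 or CD138, the surface proteoglycan by which plasma cells are sorted, was the member that was lower with IRF4-RV without overlap. It had 521 and 587 counts in the EV-RV libraries against 287 and 401 in the IRF4-RV libraries, or 17.1 ± 2.12 against 9.74 ± 1.80 CPM, a ratio of 0.569. In both groups replicate 2 was the higher library, as it was for the summed stromal markers, and syndecan genes are also expressed by stromal cells. The part of the stromal markers in the Sdc1 levels was not tested. Without IRF4-RV replicate 2, the library with the most stromal marker reads, the log2 difference of Sdc1 was -1.01 in place of -0.81, and no omission of a library turned its sign.

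**Figure D1:**
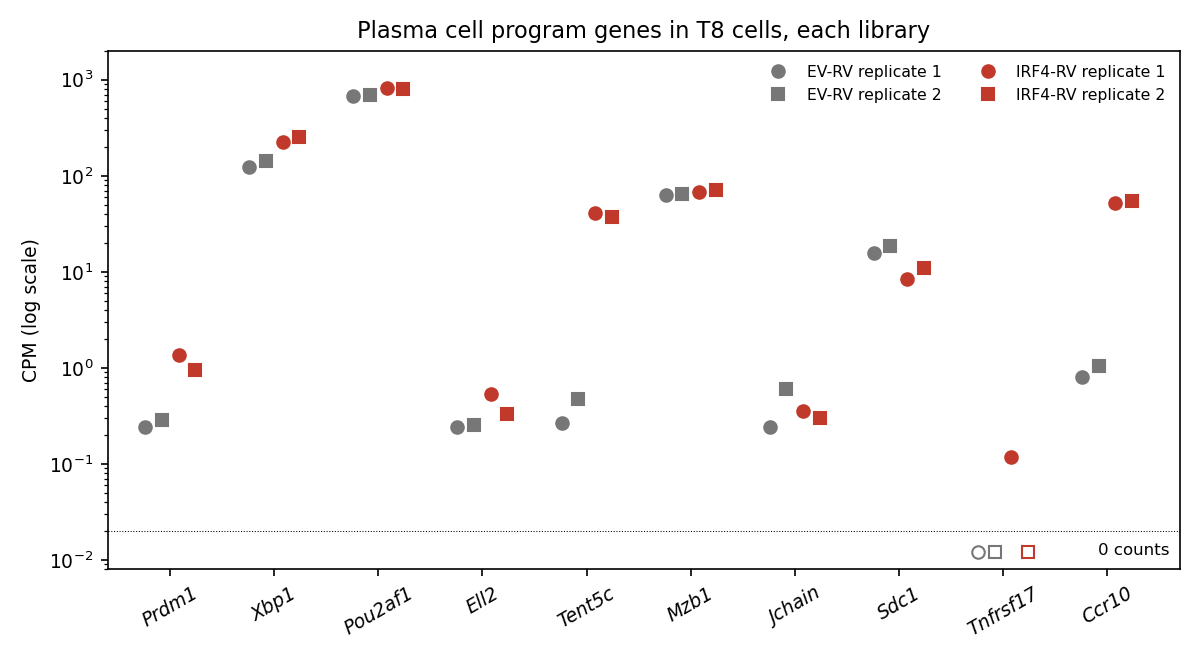
Level of each of the 10 genes in each of the 4 libraries, in CPM on a log scale, with circles for replicate 1, squares for replicate 2, grey for EV-RV and red for IRF4-RV; open symbols under the dotted line are libraries with 0 counts. Tent5c and Ccr10 stand apart by a ratio of 104.5 and 57.3, Sdc1 is lower in both IRF4-RV libraries, and the Jchain libraries of the groups overlap.

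Of the 10 members, 9 passed the filter on low counts. Among these, 7 had both IRF4-RV libraries above both EV-RV libraries, 1 (Sdc1) had both below, and 1 (Jchain) overlapped. Over all 14637 genes, 31.3% had both IRF4-RV libraries above and 29.9% both below. A gene was called where the edgeR quasi-likelihood test gave a false discovery rate (FDR) under 0.1, the cutoff of the study. That rule called 29.7% of all genes, 16.0% as higher and 13.7% as lower after IRF4-RV, and it is used below for genes that are not members. Because the genes were chosen from this contrast, nothing is read from the counts of members. The median log2 difference of the 9 members was 0.79, beside 0.0073 for all genes, and it is a description for the same reason.

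Levels of different genes were compared as RPKM, which divides CPM by the exonic length of the gene in kilobases. With EV-RV the order from high to low was Pou2af1 (267.1 ± 6.47 RPKM), Mzb1 (52.5 ± 1.42), Xbp1 (41.3 ± 4.32), Sdc1 (4.49 ± 0.557), Ccr10 (0.538 ± 0.0973), Jchain (0.167 ± 0.102), Tent5c (0.0611 ± 0.0239), Prdm1 (0.0471 ± 0.00579), Ell2 (0.0251 ± 0.00100) and Tnfrsf17 (0), each with SD and n = 2. Neighbours in this order did not overlap over their 2 libraries, except Tent5c and Prdm1, with RPKM of 0.0442 and 0.0780 against 0.0430 and 0.0512. With IRF4-RV the order became Pou2af1 (318.3 ± 8.85 RPKM), Xbp1 (73.1 ± 5.92), Mzb1 (56.7 ± 2.10), Ccr10 (30.8 ± 1.18), Tent5c (6.39 ± 0.472), Sdc1 (2.56 ± 0.472), Prdm1 (0.208 ± 0.0503), Jchain (0.130 ± 0.0147), Tnfrsf17 (0.0725 ± 0.102) and Ell2 (0.0438 ± 0.0145). Xbp1 and Mzb1 exchanged places, and Ccr10 and Tent5c moved above Sdc1. Here Tnfrsf17 overlapped with both Jchain and Ell2, and the other neighbours did not overlap. The last pair is in reverse order when the longest transcript is used as the length. Of the 10 genes, Prdm1, Jchain, Tnfrsf17 and Ell2 stayed under 0.3 RPKM in every library of both groups.

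Other genes of plasma cells were then counted from a list of 22 that leaves out the members. Of the 21 tested, 12 were called higher, 1 lower and 8 were not called, so that 61.9% were called beside 29.7% of all genes, with a median log2 difference of 0.64 beside 0.0073. This list, like the others below, was put together with earlier results of these data known, so these shares are descriptions. The 3 largest rises among those with enough counts were in Eaf2, Slamf7 and Il5ra. Eaf2, an elongation cofactor that binds ELL2, rose from 10 and 9 counts to 146 and 171 counts, by 3.93 on the log2 scale (adjusted p = 5.99e-05). Slamf7, a surface receptor of plasma cells and myeloma, rose from 34.5 ± 2.87 to 109.8 ± 10.5 CPM (log2 1.67, adjusted p = 3.36e-05), and Il5ra, a cytokine receptor chain, from 3.52 ± 0.272 to 7.10 ± 1.61 CPM (log2 1.01, adjusted p = 0.00918). Bhlha15, which encodes the secretory-cell factor MIST1 and is a known XBP1 target, rose from 12.8 ± 0.534 to 24.8 ± 1.65 CPM (log2 0.95, adjusted p = 0.000593). The gene of the list called lower was Epcam, with 29 and 25 counts in EV-RV and 7 and 8 in IRF4-RV libraries, and Il6ra, a receptor chain for IL-6, went from 3 and 1 to 99 and 73 counts (log2 5.24, adjusted p = 0.000379). Some genes called higher were already well expressed with EV-RV, such as Cd93 (247.3 CPM), Cxcr4 (84.8 CPM) and Sub1 (394.3 CPM). Among the 8 not called were Fkbp11 (log2 -0.73), Txndc5 (log2 0.05) and Zbtb20 (log2 0.67). Epcam, Il6ra and these further genes were picked for mention after their values were seen. The call of each of Eaf2, Slamf7, Il5ra and Bhlha15 held in all 10 alternative fits.

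The binding partners, ligands and relatives of the members formed a list of 24, of which 16 were tested. Of these, 7 were called higher, 1 lower and 8 were not called, with a median log2 difference of 0.25 beside 0.0073. So 8 of 16 were called, where the rule called 29.7% of all genes, 16.0% as higher and 13.7% as lower. Eaf2 and Tnfrsf13b, both called higher, were already counted among the other plasma cell genes. Around Ell2, Eaf2 rose as above, while its relative Eaf1 was at 63.5 ± 0.335 CPM with EV-RV and 53.7 ± 4.88 CPM with IRF4-RV (log2 -0.24, adjusted p = 0.0976), a call that was lost without IRF4-RV replicate 2 (adjusted p = 0.565) and held in 5 of 10 alternatives. Around Pou2af1, the octamer factor gene Pou2f1 rose from 39.2 ± 4.42 to 63.3 ± 7.58 CPM (log2 0.69, adjusted p = 0.00492), and Pou2f2, the lymphoid octamer factor, was not called (log2 0.18, adjusted p = 0.413). Around Xbp1, Ern1, which encodes the IRE1 enzyme that splices Xbp1 message, rose from 4.86 ± 0.216 to 7.88 ± 1.05 CPM (log2 0.70, adjusted p = 0.0158). Tent5a, a relative of Tent5c, had 0 counts in 3 libraries and 2 in IRF4-RV replicate 2.

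The receptors related to BCMA were present where Tnfrsf17 was not. Tnfrsf13b, the gene of TACI, rose from 221.1 and 224.9 CPM in EV-RV libraries to 381.6 and 381.3 CPM in IRF4-RV libraries (log2 0.77, adjusted p = 0.000217). Tnfrsf13c, the gene of the BAFF receptor, rose from 15.7 and 16.2 to 54.6 and 51.9 CPM (log2 1.74, adjusted p = 1.72e-05). Both calls held in all 10 alternatives. Their ligand genes Tnfsf13 (2, 2, 2 and 0 counts) and Tnfsf13b (0, 0, 1 and 0 counts) were at or under the limit of 3 counts in all libraries. Of the genes for the CCR10 ligands, Ccl27a had 2, 4, 0 and 1 counts, and Ccl28 had none. Message for Ccr10, Tnfrsf13b and Tnfrsf13c was therefore measured in libraries with almost none for the matching ligands.

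Of the other syndecans, Sdc3 was called higher where Sdc1 was lower. It read 1.29 and 2.73 CPM in the EV-RV libraries, 4.49 and 9.26 CPM in the others (log2 1.78, adjusted p = 0.0191). Without IRF4-RV replicate 2 its log2 difference was 1.17 and the call held. Sdc2, at 0.420, 1.02, 0.295 and 1.81 CPM, overlapped between groups and was not called (log2 0.57, adjusted p = 0.657), and its log2 difference turned to -1.26 without IRF4-RV replicate 2. Sdc4 went from 265.6 and 276.7 CPM to 319.1 and 306.0 CPM (log2 0.20, adjusted p = 0.0792), a call that was lost in 5 of 10 alternatives. Sdc1, Sdc2 and Sdc3 were each higher in replicate 2 than in replicate 1 of the same group, as the stromal markers were. Sdc4 was not higher in replicate 2 of IRF4-RV. The part of the stromal markers in these levels was not tested.

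**Figure D2:**
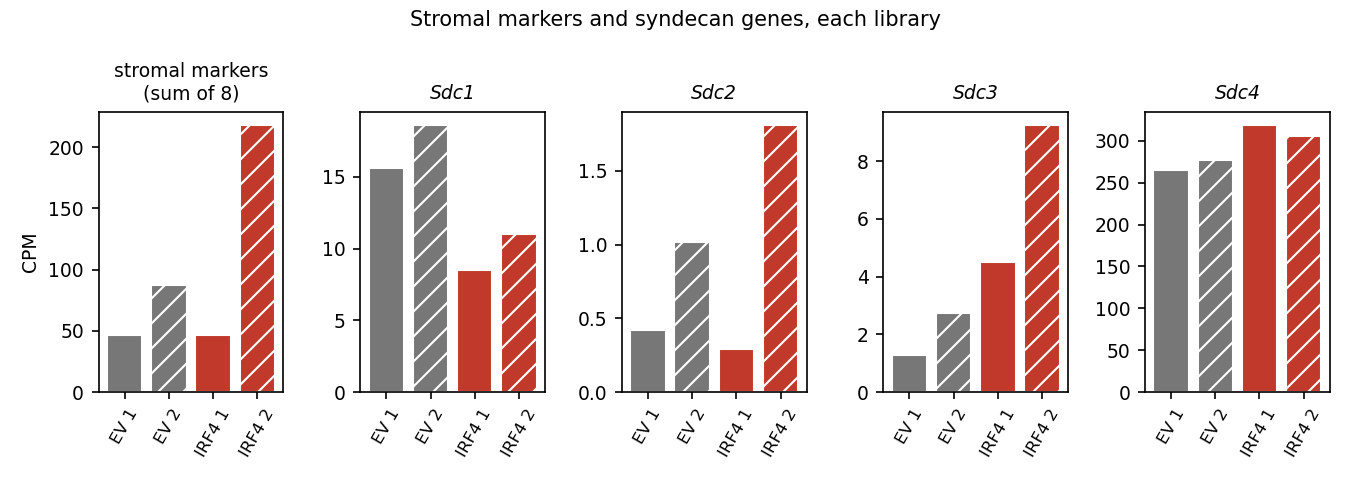
Summed level of the 8 stromal marker genes and levels of the 4 syndecan genes, in CPM, with 1 bar per library (grey, EV-RV; red, IRF4-RV; hatched, replicate 2). The stromal sum reaches 218.2 CPM in IRF4-RV replicate 2, Sdc1 is lower in both IRF4-RV libraries, and Sdc2 and Sdc3 are highest in that same library.

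The secretory pathway is the part of the plasma cell program that XBP1 serves. Of 40 genes for ER chaperones, translocation, signal peptide cleavage and degradation, all 40 were tested, with 12 called higher, 2 lower and 26 not called. Those 14 calls are a share near the 29.7% of all genes, so nothing particular to the list is read from them, and the median log2 difference was 0.15. With the replicate number as a block, 24 of the 40 were called. The 3 largest rises were in Derl3, a channel component of ER-associated degradation (2.13 ± 0.347 to 4.47 ± 0.315 CPM, log2 1.07, adjusted p = 0.00907), Sec11c, a signal peptidase subunit (84.2 ± 11.6 to 167.1 ± 0.796 CPM, log2 0.99, adjusted p = 0.000433), and Edem1, which hands misfolded glycoproteins to degradation (79.0 ± 4.49 to 146.7 ± 6.65 CPM, log2 0.89, adjusted p = 0.000254). The genes called lower were Sdf2l1 and Srprb, with log2 differences of -0.25 each (adjusted p = 0.0617 and 0.0758), and each of those calls held in 7 of 10 alternatives.

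Genes of B-cell identity, some of which Blimp-1 is known to repress on the way to a plasma cell, were called in both directions. Of 24 genes 22 were tested, with 7 called higher, 6 lower and 9 not called. That was 59.1% called beside 29.7% of all genes, with a median log2 difference of 0.11. Myc, a growth gene that Blimp-1 represses, fell from 279.4 and 282.8 CPM to 141.8 and 123.0 CPM (log2 -1.09, adjusted p = 0.000133). Id3 (log2 -0.88, adjusted p = 0.00537) and the inhibitory receptor gene Btla (log2 -0.56, adjusted p = 0.00499) also fell. Pax5, the factor that holds B-cell identity and another Blimp-1 target, read 313.3 and 233.6 CPM in EV-RV libraries, 233.4 and 183.2 CPM in IRF4-RV libraries, and was not called (log2 -0.39, adjusted p = 0.116), though 6 of 10 alternatives called it.

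Bach2 and Bcl6 encode repressors that hold back plasma cell differentiation. Bach2 rose from 35.1 ± 1.74 to 59.9 ± 11.1 CPM (log2 0.77, adjusted p = 0.00467). Bcl6 rose from 1.82 ± 0.189 to 3.16 ± 0.422 CPM (log2 0.80, adjusted p = 0.0453), a call held in 7 of 10 alternatives and lost without IRF4-RV replicate 2 (adjusted p = 0.167). The lymph node homing receptor gene Ccr7 had the largest rise of the list, from 46.0 ± 2.54 to 318.7 ± 1.28 CPM (log2 2.79, adjusted p = 1.38e-06). In the same libraries the summed B-cell precursor markers went from 3521 and 3688 CPM to 2489 and 2483 CPM. Of their 9 tested genes, 4 (Vpreb1, Igll1, Dntt and Il7r) were called lower, or 44.4%, beside 13.7% of all genes.

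**Figure D3:**
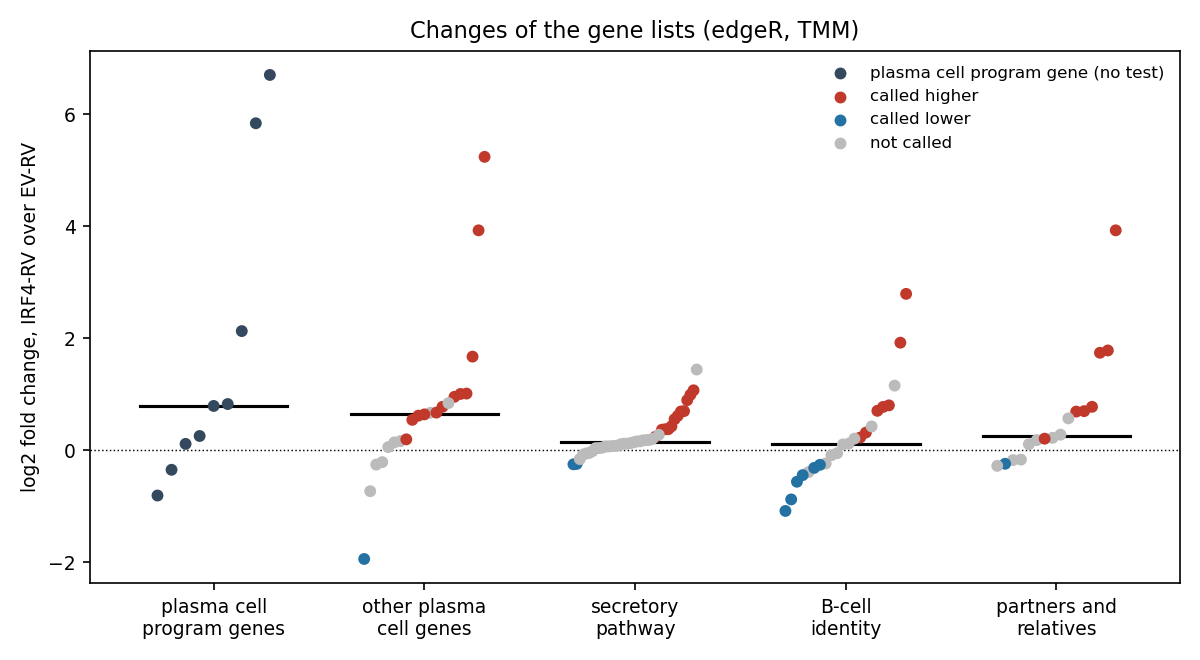
Log2 difference of each tested gene between IRF4-RV and EV-RV (vertical axis), with genes ordered within each list along the horizontal axis; red, called higher; blue, called lower; grey, not called; dark, the plasma cell program genes, shown without a test; black bars, list medians. The medians are 0.79 for the plasma cell program genes, 0.64 for other plasma cell genes, 0.15 for the secretory pathway, 0.11 for B-cell identity and 0.25 for partners and relatives.

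The lists share Eaf2, Tnfrsf13b and Ern1, which are counted in each list that holds them. With libraries scaled by their totals alone, 37.8% of all calls were higher with IRF4-RV in place of 53.8%.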

How the data were processed

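Total RNA of 4 T8 libraries (EV-RV and IRF4-RV, 2 each, which the study calls biological replicates) was sequenced. According to the submitters' processing notes and the study's methods, reads were checked with FastQC (0.11.2), aligned to GRCm38 with STAR (2.4.0j) and assigned to genes with featureCounts, and DESeq2 (1.22.1) was used for the study's own tests. The authors deposited raw counts per Ensembl gene, without normalization. How reads with several alignments and strand were handled is not given in the sources used here. Symbols and loci came from GENCODE M21 for 52083 of 55359 identifiers, and 3276 had no entry. Promoters came from RefSeq on GRCm38.p6.

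From the deposited counts, genes passing filterByExpr were fitted in R (4.3.3) with edgeR (4.0.16), TMM scaling and the quasi-likelihood test over all 4 libraries, with Benjamini-Hochberg FDR 0.1 over 14637 genes. Ratios are of mean CPM, and their 95% intervals are exact (Clopper-Pearson) on the summed counts. The edgeR test was run on simulated data with known changes, where it recovered most of them with the right sign, and the share of false calls was above the nominal FDR in each run. Each fit was repeated with DESeq2 (1.42.0), with its size factors, with scaling by library totals alone, with looser and stricter count filters, with a replicate block, at an FDR of 0.05 and without each library in turn.

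All 10 members were named. From each other list the 3 largest rises and 3 largest falls were named among called genes whose groups did not overlap and whose normalized counts averaged 50 or more, and regulators, partners, ligands and relatives were named by role (Irf4, Pou2f1, Pou2f2, Eaf2, Tnfrsf13b, Tnfrsf13c, Tnfsf13, Tnfsf13b, Ccl27a, Ccl28, Sdc2, Sdc3, Sdc4, Tent5a, Pax5, Bach2, Bcl6, Myc, Bhlha15, Ern1). The members and lists were chosen with earlier results of these data known. Apart from the cell type markers, the lists leave out genes whose results had already been described. Genes named outside the rule were cell type markers, such as Lcn2 and Il7r, and the plasma cell genes said above to be picked after their values were seen.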

Additional observations from a re-analysis of the deposited data

How the results depend on the processing

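The 9 tested members gave 87 log2 differences under the alternatives, of which 76 stayed within 1 SD of the reported value, 10 moved by more without a change of sign and 1 reversed. The reversal was Jchain, whose log2 difference ran from -0.88 without EV-RV replicate 1 to 0.45 without EV-RV replicate 2, at 8 to 19 counts per library. Over all genes, 4349 calls became 3347 at an FDR of 0.05 and 3661 with DESeq2.

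The labels do not say what samples with the same replicate number shared. Over genes, the deviations of the 2 replicate 1 libraries from their group means had a correlation of 0.28. With 2 libraries per group, the deviations of replicate 2 mirror these and add no further value. With the replicate block, 6394 genes were called, or 43.7% of all genes in place of 29.7%. Among them were 24 of the secretory pathway in place of 14 and 18 other plasma cell genes in place of 13. They also held 18 B-cell identity genes in place of 13 and 11 partners in place of 8. For the other alternatives each list count stayed within 1.5 times the reported one. The median log2 difference of the B-cell identity genes turned to -0.09 with a minimum mean of 1 CPM, which also left out Prdm1.

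With 2 libraries per group, calls rest on a spread shared across genes. Members under 20 counts (Jchain, Ell2 and Tnfrsf17) are limited by depth.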
